A study of Mus musculus with 12 samples.

Results

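The 8 genes described here, Hmgcs1, Idi1, Fdps, Fdft1, Sqle, Lss, Cyp51 and Insig1, were taken as a named set from the cholesterol synthesis pathway, and all 8 were found once each among the 53465 genes of the deposited table. Their transcripts were measured by RNA-seq in LSKs, the Lin- Sca-1+ c-Kit+ cells of mouse bone marrow (BM) that hold the hematopoietic stem cells and early progenitors. The study asked how loss of Tespa1, a gene first described in thymocytes, changes these cells at rest and after 5-fluorouracil (5-FU), a drug that kills cycling BM cells. The 4 groups of 3 libraries were untreated Tespa1+/+, untreated Tespa1-/-, Tespa1+/+ at day 9 after 5-FU and Tespa1-/- at day 9 after 5-FU. The knockout was germline, so every cell of the mouse lacked the intact gene, the Tespa1+/+ mice were littermates, and the mice were male and 8 to 10 weeks old. LSKs were sorted on surface markers, and a sorted population can hold several cell types.

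Cells make cholesterol from acetyl-CoA through the mevalonate pathway, which also supplies the isoprenoids that anchor small GTPases to membranes. When the membrane of the endoplasmic reticulum is low in sterol, SCAP carries the transcription factor SREBP2, encoded by Srebf2, to the Golgi, where it is cleaved and released to switch on nearly every enzyme of the pathway. INSIG proteins hold SCAP back when sterol is plentiful, so that Insig1, itself a target of SREBP2, closes a feedback loop.

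The members follow that order. Hmgcs1 (chr13:119690379-119708260, GRCm38 throughout) encodes the cytosolic HMG-CoA synthase, an early enzyme of the mevalonate pathway. Idi1 (chr13:8885501-8892451) encodes isopentenyl diphosphate isomerase, and Fdps (chr3:89093588-89101959) encodes farnesyl diphosphate synthase, whose product stands at the branch to the isoprenoids. Fdft1 (chr14:63145150-63179578) encodes squalene synthase, the first enzyme committed to sterols. Sqle (chr15:59315077-59331192) encodes squalene epoxidase, and Lss (chr10:76531588-76557138) encodes lanosterol synthase, which closes the ring system. Cyp51 (chr5:4081145-4104746) encodes the lanosterol demethylase that follows, and Insig1 (chr5:28071363-28078662) encodes the sterol-regulated anchor of SCAP.

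Promoter sequence of RefSeq (GRCm38.p6, 250 bases before to 50 after each start) was at hand for 5 of the 8 members, Hmgcs1, Idi1, Insig1, Lss and Cyp51. Both strands were searched for TCACNCCAC and the shorter TCACNNCA, which is contained in the first and describes the core of a sterol regulatory element, for CACGTG (an E-box, a palindrome that SREBPs can also bind), and for CCAAT, the site of NF-Y. The longer motif was found in the Hmgcs1 promoter and in 1.24% of 32851 promoters in the table. The shorter motif was found in Hmgcs1 and Cyp51 and in 13.8% of all promoters, the E-box in Insig1 and in 7.15%, and CCAAT in each of the 5 and in 37.4%. The stretches around the longest match are shown for Hmgcs1, Cyp51 and Insig1, the members with a match other than CCAAT. They run 5′ to 3′ on the strand of the gene, lie before the annotated start, and carry the match in capitals. A match describes letters in this window and is not evidence that a factor was bound.
Hmgcs1, chr13:119690189-119690247, plus strand: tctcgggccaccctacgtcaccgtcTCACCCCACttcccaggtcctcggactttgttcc
Cyp51, chr5:4104753-4104810, minus strand: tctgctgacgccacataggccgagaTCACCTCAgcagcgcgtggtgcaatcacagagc
Insig1, chr5:28071286-28071341, plus strand: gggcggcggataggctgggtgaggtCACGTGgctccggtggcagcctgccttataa

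Library totals ran from 22118154 to 28275079 counts, and the third Tespa1-/- library after 5-FU had the lowest. Each member had between 173 and 1076 counts in every library, far above the 3 counts (0.107 to 0.136 CPM, which are counts scaled to library size) taken as the limit of detection, which covers counting error only. Untreated libraries held 43.0 to 49.8 CPM of Tespa1 itself with the intact gene and 34.5 to 35.0 CPM without it. After 5-FU these levels were 47.2 to 57.5 and 17.3 to 20.8 CPM, so transcript from the targeted gene remained in the knockout but was lower in both treatments (log2 -0.42 and -1.47, edgeR adjusted p = 0.0316 and 9.38e-05). The untreated call was lost in 5 of 6 fits with 1 library left out, all but the one without the second Tespa1+/+ library (adjusted p up to 0.14), and the call after 5-FU in none of them. The labels do not say whether the libraries of a group came from separate mice, so p-values measure the spread between these libraries.

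Per length of transcript, the members covered a wide range. On the FPKM scale, which the authors computed and which divides counts by a gene length, the means over the 12 libraries were 8.99 for Insig1, 5.35 for Hmgcs1, 5.00 for Cyp51, 4.85 for Idi1, 3.39 for Fdps, 2.58 for Sqle, 2.37 for Fdft1 and 0.674 for Lss. Insig1 stood above Hmgcs1 in 12 of 12 libraries, and Fdft1 stood above Lss in 12 of 12. The neighbours between them were less well separated: Cyp51 was above Idi1 in 7 of 12 libraries and Sqle above Fdft1 in 9 of 12. The length behind the FPKM, recovered from the counts, was above the exon length in GENCODE M21 for all 8 members, from 3454 against 3093 bases for Insig1 to 18461 against 10787 bases for Lss. With CPM divided by exon length, Lss remained lowest (1.15 CPM per kilobase) and Insig1 highest (10.0), while Idi1 (6.63) came before Cyp51 (6.13).

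The members also differed in how closely replicates agreed. The median coefficient of variation within groups was 4.78% for Insig1 and 6.95% for Cyp51, the tightest of the 8, and 36.4% for Lss, the widest. CPM here and below are counts scaled by the library total and TMM factors. The plot of CPM by library shows every value, and each gene is compared with itself across groups and not with the others.

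**Figure D1:**
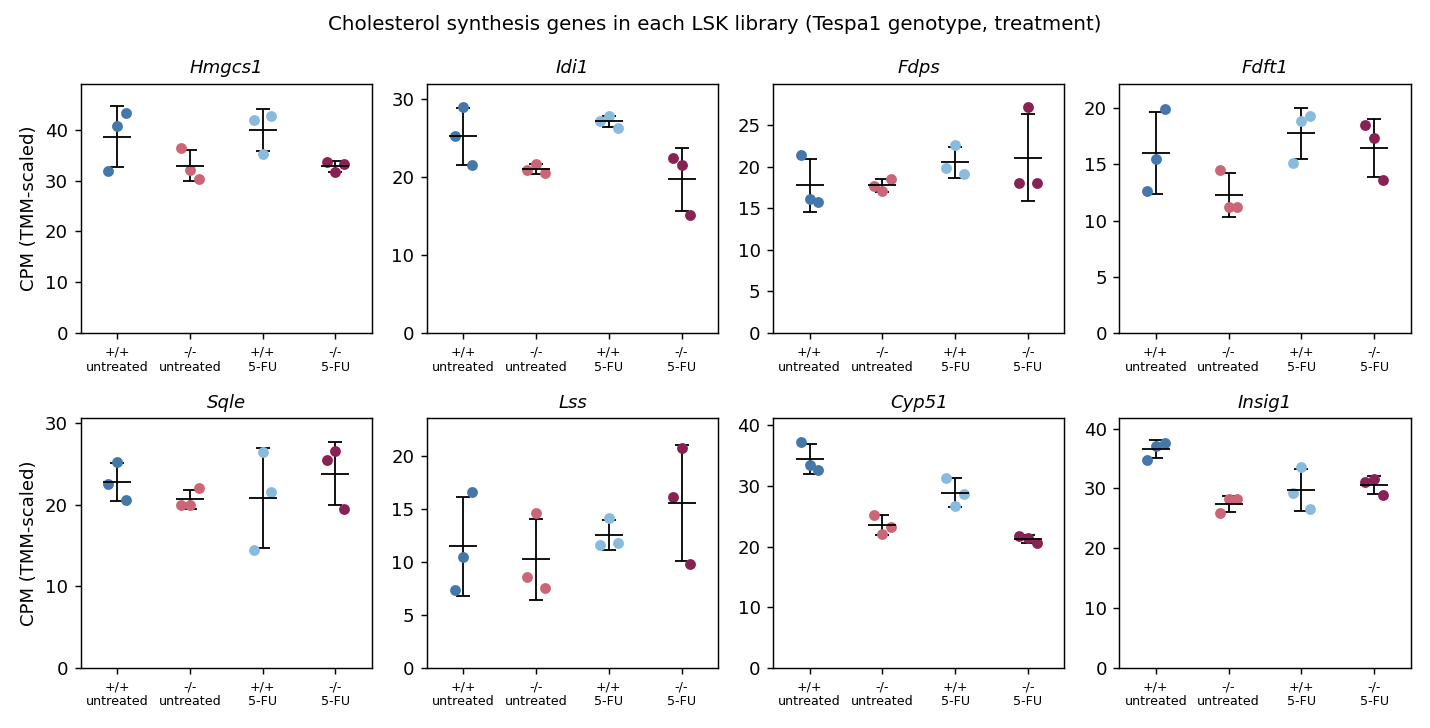
CPM of the 8 members (vertical axes, starting at 0) in each of the 12 LSK libraries, by Tespa1 genotype (+/+ or -/-) and treatment, with 3 libraries a group (points) and the mean and SD (bars). Cyp51 was lower in Tespa1-/- than in Tespa1+/+ libraries in both treatments without overlap, Insig1 only in the untreated pair, and the Lss libraries spread most.

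In untreated LSKs, Cyp51 and Insig1 were lower in Tespa1-/- than in Tespa1+/+ mice, and the other 6 members did not pass the test. Cyp51 was at 37.3, 33.5 and 32.7 CPM in the 3 Tespa1+/+ libraries and at 25.3, 22.1 and 23.3 CPM in the 3 Tespa1-/- libraries. Every knockout library was below every wild-type library. The log2 fold change was -0.55 (SE 0.11), or 0.685 times the wild-type level, with an adjusted p of 0.0239 in edgeR's quasi-likelihood test over 17055 genes. Insig1, the feedback regulator, was at 34.8, 37.1 and 37.7 CPM in Tespa1+/+ and at 25.9, 28.2 and 28.2 CPM in Tespa1-/- libraries. These groups did not overlap either, and the log2 fold change was -0.41 (SE 0.093, edgeR adjusted p = 0.043).

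The early enzymes overlapped between the untreated genotypes. Hmgcs1 was at 31.8, 40.8 and 43.3 CPM in Tespa1+/+ and at 36.4, 32.1 and 30.4 CPM in Tespa1-/- libraries, with the first wild-type library inside the range of the knockout. Its log2 fold change was -0.23 (SE 0.14, edgeR adjusted p = 0.426). Idi1 was at 25.2, 28.9 and 21.5 CPM against 20.9, 21.7 and 20.5 CPM, a log2 difference of -0.26 (SE 0.13, edgeR adjusted p = 0.348). The 3 knockout libraries of Idi1 sat close together at the lower end of the wild-type values. Fdps was at 21.4, 16.1 and 15.8 CPM in Tespa1+/+ and at 17.7, 17.0 and 18.6 CPM in Tespa1-/- libraries, with means of 17.7 ± 3.15 and 17.8 ± 0.76 (SD, n = 3). Its fitted log2 difference was 0.0023 with a 95% interval of -0.35 to 0.35.

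The sterol-committed enzymes before Cyp51 gave no call in untreated LSKs. Fdft1 was at 12.6, 15.5 and 19.9 CPM in Tespa1+/+ and at 14.5, 11.2 and 11.2 CPM in Tespa1-/- libraries. The knockout libraries were mostly low, but the wild-type libraries spread over more than the difference (log2 -0.38, SE 0.20, edgeR adjusted p = 0.375). Sqle was at 22.5, 25.2 and 20.7 CPM against 20.01, 19.96 and 22.1 CPM, and its log2 difference was -0.14 (SE 0.12). Lss was at 7.39, 10.5 and 16.6 CPM against 8.56, 14.6 and 7.55 CPM, so that both groups covered nearly the same range (log2 -0.16, SE 0.34).

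Of the 8 members, 2 were called lower in untreated Tespa1-/- LSKs, where 3.59% of all genes were called lower, and 0 were called higher, where 1.64% were. At an unadjusted p below 0.05 in either direction the count was also 2, where 18.5% of all genes passed, and DESeq2 called the same 2 genes. In 2 of the 8 the genotypes did not overlap in the lower direction, against 13.4% of all genes tested. The fitted log2 difference was negative in 7 of the 8, with a median of -0.24 beside 0.0071 over all genes. The summed CPM of the members was 193 to 208 in Tespa1+/+ and 162 to 169 in Tespa1-/- libraries, without overlap. The Insig1 call was lost whichever of the 6 libraries was left out (adjusted p 0.0597 to 0.184), and the Cyp51 call was kept only without the third Tespa1+/+ library (adjusted p 0.0339 to 0.122 over the 6 fits). Other gene groups moved with genotype in the same libraries: the summed CPM of 10 LSK markers was 1600 to 1672 in Tespa1+/+ and 1332 to 1385 in Tespa1-/- libraries, and that of 10 immediate-early genes was 8578 to 8978 and 6160 to 6278. Markers of other cell types separated the untreated genotypes at lower levels: 8 B lymphoid markers summed to 80.1 to 92.5 CPM in the wild type and 54.2 to 60.9 in the knockout, 10 erythroid markers to 102 to 128 and 139 to 154, 6 megakaryocyte markers to 44.2 to 50.8 and 74.9 to 79.9, 8 monocyte and macrophage markers to 169 to 196 and 199 to 220, and 10 neutrophil markers to 0.77 to 1.60 and 4.70 to 5.85. Of the 7 monocyte and macrophage markers tested, 5 had positive and 2 negative differences. Between 2 and 3 of the neutrophil markers were at 0 in each group, as was 1 megakaryocyte marker in the wild type. Their part in the result was not tested, and in bulk libraries fewer cells of a type and less RNA per cell cannot be told apart.

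**Figure D2:**
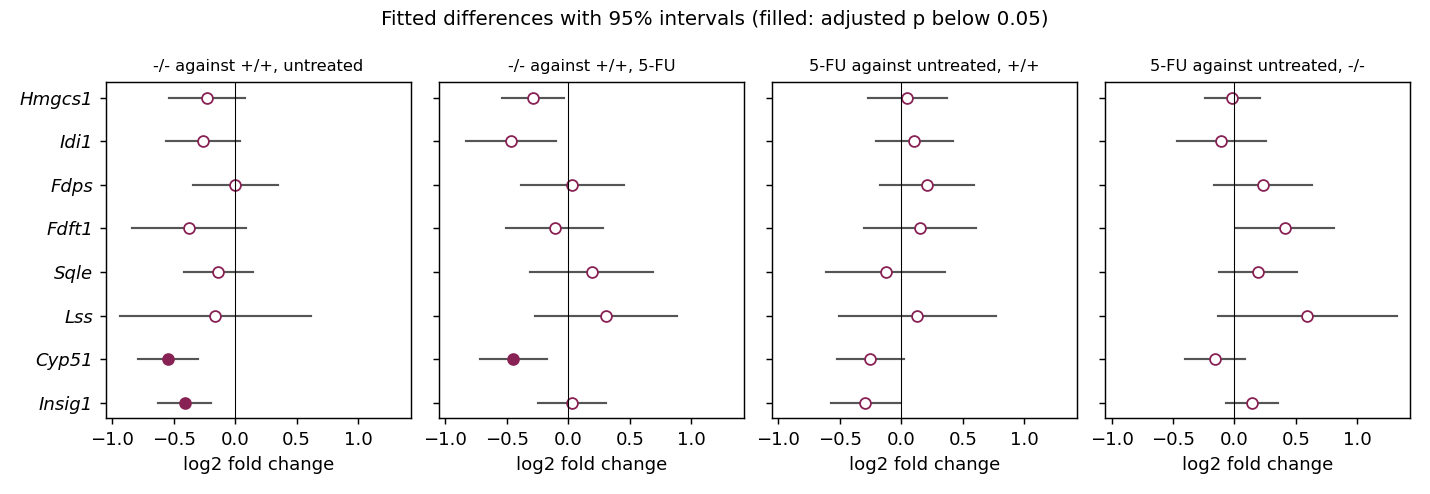
Log2 fold change of each member (points) with its 95% interval (lines) from edgeR in 4 comparisons, each on 6 libraries, with genes past an adjusted p of 0.05 filled. Cyp51 is filled in both comparisons of genotypes, Insig1 only in untreated LSKs, and no member is filled for 5-FU within a genotype.

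At day 9 after 5-FU, Cyp51 was again lower in Tespa1-/- LSKs and was the only member called. It was at 31.4, 26.7 and 28.7 CPM in Tespa1+/+ and at 21.8, 21.5 and 20.5 CPM in Tespa1-/- libraries. The knockout libraries lay close together and all below the wild-type range. The log2 fold change was -0.45 (SE 0.12), or 0.733 times the wild-type level, with an edgeR adjusted p of 0.0401 over 17239 genes. The call was lost whichever of the 6 libraries was left out, with log2 fold changes from -0.50 to -0.38 and adjusted p-values from 0.0572 to 0.119.

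Insig1 did not differ by the test after 5-FU. It was at 29.2, 33.5 and 26.6 CPM in Tespa1+/+ and at 31.1, 31.7 and 28.9 CPM in Tespa1-/- libraries, and the knockout values fell inside the wild-type range. The fitted log2 difference was 0.031 with a 95% interval of -0.25 to 0.31.

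Hmgcs1 and Idi1 separated by genotype after 5-FU without passing the adjusted threshold. Hmgcs1 was at 42.0, 35.2 and 42.7 CPM in Tespa1+/+ and at 33.7, 31.6 and 33.2 CPM in Tespa1-/- libraries (log2 -0.29, SE 0.11, edgeR adjusted p = 0.138). Idi1 was at 27.2, 27.8 and 26.3 CPM in Tespa1+/+ and at 22.5, 21.5 and 15.1 CPM in Tespa1-/- libraries (log2 -0.46, SE 0.16, edgeR adjusted p = 0.0996). In both genes every knockout library was below every wild-type library, and the lowest Idi1 value came from the third Tespa1-/- library. Without that library the log2 difference of Idi1 was -0.30.

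The 4 enzymes from Fdps to Lss overlapped between genotypes after 5-FU. Fdps was at 19.9, 22.6 and 19.1 CPM in Tespa1+/+ and at 18.0, 27.1 and 18.1 CPM in Tespa1-/- libraries, with the second knockout library the highest of the 12. Fdft1 was at 15.1, 18.8 and 19.3 CPM against 18.5, 17.3 and 13.6 CPM. Neither gene had a difference beyond its spread, with log2 values of 0.034 (SE 0.19) and -0.11 (SE 0.17). Sqle was at 14.4, 26.6 and 21.6 CPM in Tespa1+/+ and at 25.5, 26.6 and 19.5 CPM in Tespa1-/- libraries (log2 0.19, SE 0.22). Lss was at 11.6, 14.2 and 11.8 CPM against 16.2, 20.7 and 9.75 CPM (log2 0.31, SE 0.26). The third knockout library was the lowest of its group for Idi1, Fdft1, Sqle, Lss, Cyp51 and Insig1.

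The count after 5-FU was thus 1 of 8 members lower, where 5.78% of all genes were called lower, and 0 of 8 higher, where 7.34% were. At an unadjusted p below 0.05 there were 3 members, Hmgcs1, Idi1 and Cyp51, where 26.7% of all genes passed, and DESeq2 called Cyp51. In these 3 the genotypes did not overlap in the lower direction, as in 15.5% of all genes. The median log2 difference was -0.040 for the members and -0.0097 for all genes, with 4 of 8 negative. The summed CPM was 190.8 to 205.3 in Tespa1+/+ and 187.2, 198.0 and 158.6 in Tespa1-/- libraries. Marker genes of other cells separated the same groups. The sum of 10 neutrophil markers was 1058 to 1061 CPM in Tespa1-/- libraries after 5-FU and 3.66 to 8.42 CPM in Tespa1+/+ libraries, where 3 of the 10 were at 0, and that of 10 erythroid markers was 565 to 580 and 160 to 163 CPM. The 10 LSK markers summed to 800 to 868 CPM against 1329 to 1374 CPM, and 14 of 18 proliferation genes were called higher. The sums of megakaryocyte (251 to 263 against 173 to 194 CPM), B lymphoid (471 to 479 against 402 to 417 CPM) and monocyte and macrophage markers (248.9 to 265.6 against 225 to 238 CPM) were also higher in each knockout library. That of immediate-early genes was lower (4743 to 4931 against 6021 to 6094 CPM). Of the 8 monocyte and macrophage markers, 1 was called higher and 1 lower. The part of all these genes in the Cyp51 result was not tested.

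Within a genotype, 5-FU changed no member past the threshold. In Tespa1+/+ LSKs the edgeR counts were 0 of 8 higher and 0 of 8 lower, where 3.77% and 4.18% of 17002 genes were called, and DESeq2 also called 0. At an unadjusted p below 0.05, which 21.5% of all genes passed, there was 1 member, Insig1, whose log2 difference was -0.29 (SE 0.12, edgeR adjusted p = 0.21). Insig1 and Cyp51 were lower in every library after 5-FU than in every untreated one, as were 14.5% of all genes. The log2 difference of Cyp51 was -0.25 (SE 0.12, edgeR adjusted p = 0.268), and those of the other 6 members lay between -0.13 for Sqle and 0.21 for Fdps. The members' median was 0.078 beside 0.014 for all genes. In the same libraries the B lymphoid markers summed to 80.1 to 92.5 CPM untreated and to 402 to 417 CPM after 5-FU. The megakaryocyte markers were at 44.2 to 50.8 and 173 to 194 CPM, and the LSK markers at 1600 to 1672 and 1329 to 1374 CPM. The LSK sum fell with Cd34 (log2 -0.568) and Flt3 (-0.955), both called lower. The other 8 of the 10 LSK markers had positive differences, and 2 of them, Slamf1 (1.73) and Mecom (0.983), were called higher. The sums of erythroid (102 to 128 and 160 to 163 CPM), monocyte and macrophage (169 to 196 and 225 to 238 CPM) and neutrophil markers (0.77 to 1.60 and 3.66 to 8.42 CPM) did not overlap between the treatments. Nor did that of immediate-early genes (8578 to 8978 and 6021 to 6094 CPM). Of the 7 monocyte and macrophage markers tested, 4 had positive and 3 negative differences, and 1, Ccr2 (log2 0.954), was called. The part of these marker genes in the members' values was not tested.

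In Tespa1-/- LSKs, the edgeR counts after 5-FU were again 0 of 8 in either direction, where 10.7% of 17228 genes were called higher and 8.64% lower, and DESeq2 called 0. Fdft1, the first committed step to sterols, was the 1 member with an unadjusted p below 0.05, which 32.3% of all genes had, at a log2 difference of 0.41 (SE 0.18, edgeR adjusted p = 0.146). Insig1 was above the untreated range in every treated library, as were 20.4% of genes, and Cyp51 was below it, as were 18.1%. Their differences were small, 0.14 (SE 0.093) and -0.16 (SE 0.11) on the log2 scale. Lss had the largest fitted difference, 0.59, with the largest error (SE 0.32, edgeR adjusted p = 0.241). The median was 0.17 for the members and -0.0094 for all genes. The sums of the 6 marker lists of cell types and of the immediate-early genes all differed without overlap between the treatments here. Of the 10 LSK markers 3 were called higher and 3 lower, and of 8 monocyte and macrophage markers 4 were called higher and 1 lower. Neutrophil markers were at 4.70 to 5.85 CPM untreated and 1058 to 1061 CPM after 5-FU, B lymphoid markers at 54.2 to 60.9 and 471 to 479 CPM, erythroid markers at 139 to 154 and 565 to 580 CPM, and LSK markers at 1332 to 1385 and 800 to 868 CPM, and their part was not tested here either.

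The interaction of genotype and treatment, which asks whether the genotype difference after 5-FU departs from the one at rest, was tested over the 12 libraries and 18696 genes. No member passed: 0 of 8 were called by edgeR in either direction, where 3.02% of genes were called positive and 1.99% negative, and DESeq2 called 0. The 1 member with an unadjusted p below 0.05, which 18.7% of genes had, was Insig1, at 0.45 on the log2 scale (SE 0.15, edgeR adjusted p = 0.108). Its mean was 36.5 ± 1.5 CPM in untreated Tespa1+/+, 27.4 ± 1.29 CPM in untreated Tespa1-/-, 29.8 ± 3.49 CPM in Tespa1+/+ after 5-FU and 30.5 ± 1.48 CPM in Tespa1-/- after 5-FU (SD, n = 3 each). For Cyp51 the interaction was 0.10 (SE 0.15), with means of 34.5 ± 2.46, 23.6 ± 1.59, 28.9 ± 2.37 and 21.3 ± 0.632 CPM in the same order. The median interaction was 0.19 for the members and -0.021 for all genes. The genotype comparisons and the comparisons within a genotype share libraries, so their values are set side by side and not counted as separate support.

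**Figure D3:**
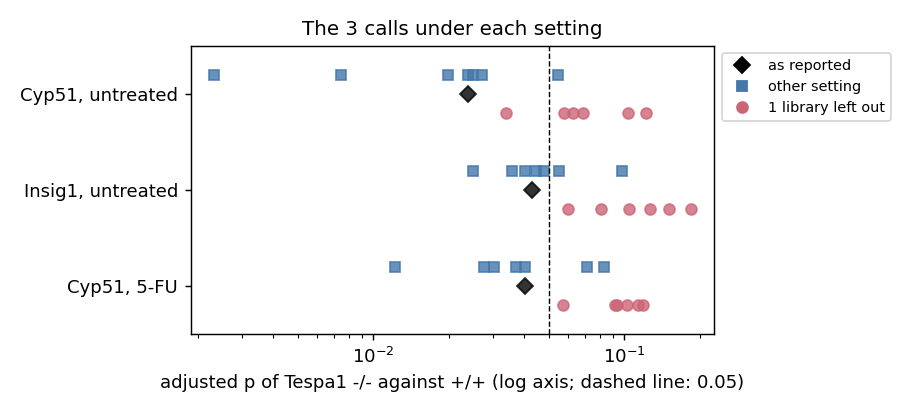
Adjusted p (horizontal log axis) of Tespa1-/- against Tespa1+/+ for Cyp51 and Insig1 in untreated LSKs and Cyp51 after 5-FU, as reported (diamonds), under other settings of the test (squares) and with 1 library left out (circles), with the threshold of 0.05 dashed. Nearly all circles lie to the right of the line, whereas most squares lie to the left.

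For 12 other enzymes of the pathway that could be reported and were tested, edgeR called 0 between genotypes in untreated LSKs. Of all genes, it called 3.59% lower and 1.64% higher. An unadjusted p below 0.05 was found for 1 of the 12 and for 18.5% of all genes, and DESeq2 called 0 of the 12. The median log2 difference of the 12 was -0.086 and 9 were negative. Msmo1, which acts in the removal of methyl groups after Cyp51, had a log2 difference of 0.34 with an SE of 0.31. After 5-FU, edgeR again called 0 of the 12, where it called 5.78% of all genes lower and 7.34% higher. An unadjusted p below 0.05 was found for 1 of the 12 and for 26.7% of all genes. DESeq2 called 0 of the 12, and their median was 0.17.

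Among 9 genes that control SREBP, 1, Srebf2, was lower in Tespa1-/- LSKs in both treatments (all genes: 3.59% untreated, 5.78% after 5-FU). It was at 230.3 ± 4.58 and 179.3 ± 9.09 CPM in untreated Tespa1+/+ and Tespa1-/- LSKs (SD, n = 3 here and below; log2 -0.36, SE 0.054, edgeR adjusted p = 0.00782). After 5-FU it was at 212.4 ± 5.11 and 176.3 ± 13.3 CPM (log2 -0.27, SE 0.066, edgeR adjusted p = 0.025). The untreated call was lost without the first or the second Tespa1-/- library (adjusted p 0.0517 and 0.057). The call after 5-FU was lost in 4 of 6 fits with 1 library left out, without any Tespa1+/+ library or without the first Tespa1-/- library (adjusted p 0.0405 to 0.0846 over the 6). Its partners Scap, Srebf1 and Insig2 did not pass in either comparison, at -0.078, -0.13 and 0.46 on the log2 scale in untreated LSKs and at 0.19, 0.012 and 0.30 after 5-FU.

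Of the genes for sterol uptake and trafficking, 1 of 9 tested was lower in untreated Tespa1-/- LSKs, where 3.59% of all genes were. This was the lipoprotein receptor family member Lrp1 (log2 -0.49, SE 0.089, edgeR adjusted p = 0.0185). Its call was kept only without the third Tespa1+/+ library among the 6 fits with 1 library left out (adjusted p up to 0.0959). After 5-FU, 2 of 10 were higher, Lrp1 (log2 0.42) and Lrp8 (0.38), where 7.34% of all genes were. Lower was 1 of the 10, Vldlr (-0.54), where 5.78% of all genes were. With 1 library left out, the Lrp8 call was lost in 6 of 6 fits (adjusted p 0.0505 to 0.139), the Lrp1 call in 5 of 6, all but the one without the third Tespa1-/- library (0.0184 to 0.138), and the Vldlr call in 4 of 6, all but those without the third Tespa1+/+ or the first Tespa1-/- library (0.0217 to 0.0734). Among sterol efflux and storage genes, 3 of 11 were lower in untreated Tespa1-/- LSKs, against 3.59% of all genes. They were the exporters Abca1 (log2 -0.46) and Abcg1 (-0.38) and the LXR receptor Nr1h2 (-0.53). With 1 library left out, the Abcg1 call was kept only without the third Tespa1+/+ library (adjusted p 0.0382 to 0.146), the Abca1 call was lost without the first or the second Tespa1-/- library (0.0537 and 0.056), and the Nr1h2 call was kept in each of the 6 fits. After 5-FU 3 of 10 were lower, against 5.78% of all genes, namely Abca1 (-0.78), Abcg1 (-0.54) and the cholesteryl ester hydrolase Nceh1 (-0.85).

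Branches that leave the pathway or run beside it were counted in the same way. Of 14 isoprenoid genes, edgeR called 0 between genotypes in either treatment. An unadjusted p below 0.05 was found for 2 in untreated LSKs and 3 after 5-FU, where 18.5% and 26.7% of all genes had one. DESeq2 called 0 and 2. Of 12 fatty acid synthesis genes, 1, the desaturase Scd2, was lower in untreated Tespa1-/- LSKs (log2 -0.43, SE 0.050), where 3.59% of all genes were. After 5-FU, 2 of the 12 were lower, where 5.78% of all genes were, Scd2 (-0.20) and the elongase Elovl6 (-0.77). The Scd2 call after 5-FU was lost whichever of the 6 libraries was left out (adjusted p 0.0684 to 0.0817), and the Elovl6 call was kept in each of these fits. Myc, which promotes growth and is no member of these lists, was higher in untreated Tespa1-/- LSKs (log2 0.44, SE 0.095, edgeR adjusted p = 0.0363) and was at -0.016 after 5-FU. With 1 library left out the untreated call was lost in 5 of 6 fits, all but the one without the third Tespa1+/+ library (adjusted p up to 0.158).

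**Figure D4:**
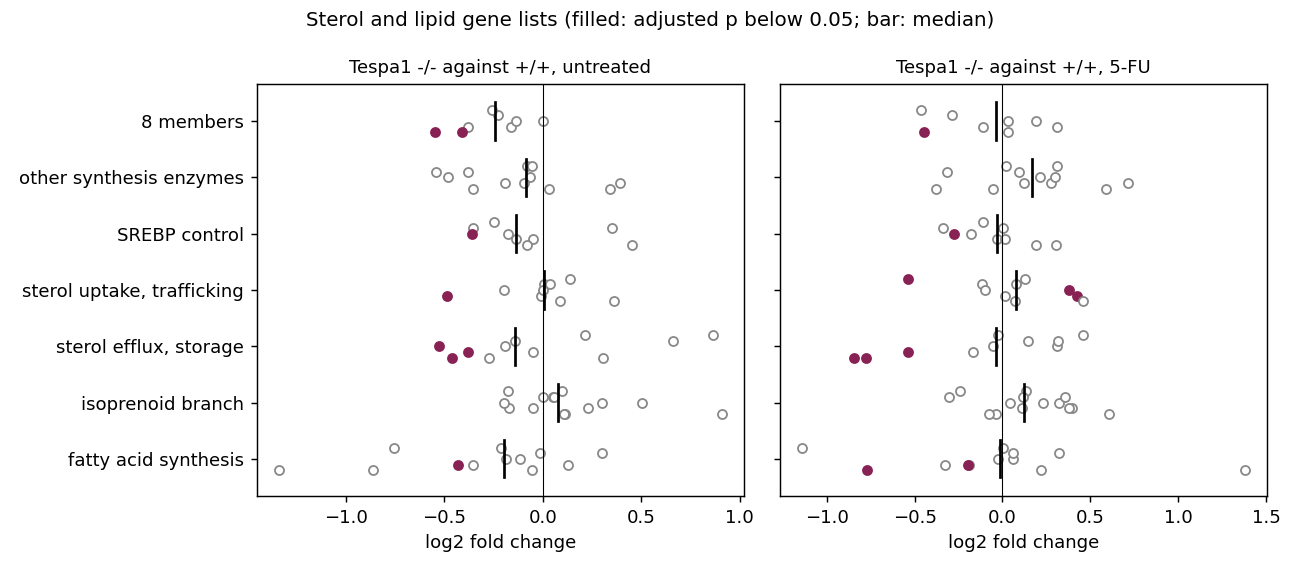
Log2 fold change of Tespa1-/- against Tespa1+/+ LSKs, untreated (left) and at day 9 after 5-FU (right), for each gene (points) of the members and 6 related lists, with the list median (bars) and genes past an edgeR adjusted p of 0.05 filled. The members' median was -0.24 in untreated LSKs and -0.040 after 5-FU, and the filled points are a minority of each list.

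Across the 12 libraries the members did not move as one. The Pearson correlation of each member with the mean of the other 7, on z-scored log2 CPM, ran from 0.058 for Fdps to 0.67 for Fdft1, with 0.34 for Cyp51 and 0.54 for Insig1. The 5 genes outside the sterol and lipid lists whose pattern was most like the members' mean were Vill (r = 0.952), Pnrc2 (0.933), Herc3 (0.884), Larp7 (0.867) and Omg (0.864), and Omg was at or below 0.514 CPM in every group mean. These values are descriptions over 12 libraries, which fall into the same 4 groups for every gene.

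Several members share exons with other annotated genes, and whether the counting used strand is not given in the sources used here. Cyp51 shares 166 exon bases, 3.76% of its exons, with Akap9 on the opposite strand, and Akap9 was at 327.6 to 337.6 CPM in untreated Tespa1+/+ and 311.3 to 326.2 CPM in untreated Tespa1-/- libraries, and at 314.8 to 348.7 and 288.3 to 304.5 CPM after 5-FU. It was thus below the wild-type range in both treatments, with log2 differences of -0.057 (edgeR adjusted p = 0.542) and -0.16 (0.0841), and DESeq2 called the second (adjusted p = 0.0433). The share of Cyp51 counts that came from Akap9 reads was not tested. Fdft1 shares 18.3% of its exon bases with Ctsb on the opposite strand, which was higher in Tespa1-/- after 5-FU (log2 0.41, edgeR adjusted p = 0.0034). Fdps shares 26.7% with Gm43738 on the same strand, so that counts of Fdps are uncertain. Hmgcs1 and Idi1 share 12.1% and 9.22% with opposite-strand transcripts, and Lss 3.53%. Insig1 and Sqle overlap no other gene in GENCODE M21.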

How the data were processed

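The authors deposited 1 table with the counts per gene of each of 12 libraries, not normalized, and FPKM values that the authors computed from the same counts. The submitters' processing notes name CASAVA 1.8, HISAT2, StringTie, edgeR and GRCm38. edgeR 4.0.16 (R 4.3.3) was run on these counts, with filterByExpr (minimum count 10), TMM factors, glmQLFit and glmQLFTest on the 6 libraries of each comparison, or on 12 for the interaction. Calls are at a Benjamini-Hochberg adjusted p below 0.05 over all genes tested. FPKM values served only to order levels between genes. Groups came from the labels. All sample columns were used.

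The 8 members and all gene lists were chosen with earlier results of these data known. The members are named whatever they show. Genes of the sterol and lipid lists are named if called between genotypes or in the interaction, together with Srebf1, Srebf2, Scap, Insig2, Abca1, Myc, Tespa1 and Msmo1. Some genes of these lists are not reported here and were left out of their lists' counts and medians. The 5 genes most like the members are those with the highest correlation. Overlapping genes were chosen after values were seen. The test was run on simulated counts for the genotype comparison after 5-FU, where it recovered 38% of genes changed 1.5-fold and 97% of genes changed 2-fold among 17349 genes, with 8.78% of calls false. For the interaction, among 17909 genes, it recovered 3% and 51%, with 3.57% false. The spread of the simulated counts was a fixed setting not fitted to these data, and only a small set of genes was changed. The percentages are therefore not rates for these data. Alternatives were DESeq2 1.42.0, RLE factors, library totals, 2 other filters, 1 fit of 12 libraries, the replicate number as a block, and each library left out. A further one was calls at the thresholds stated by the study, a raw P under 0.05 with over 1.5-fold change. Of 12 replicate pairs 0 were identical, and each differed by more than sampling noise (median chi-square 2.08 to 5.87, against 0.455 from sampling).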

Additional observations from a re-analysis of the deposited data

Results flagged for a closer look

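No member had a genotype difference that departed between treatments past the threshold, and no single library was tested for standing apart from the others of its group of 3. Among the related lists, 4 reported genes were called by edgeR in the interaction, a test of the genotype difference after 5-FU minus that in untreated LSKs. Called positive were 2 of 10 uptake and trafficking genes and 1 of 12 fatty acid synthesis genes, where 3.02% of all genes were. Called negative was 1 of 11 efflux and storage genes, where 1.99% of all genes were. For the 12 other enzymes, 9 SREBP control genes and 14 isoprenoid genes the count was 0. The difference was 0.92 on the log2 scale for Lrp1 (SE 0.15, adjusted p = 0.00349), 0.58 for Lrp8 (SE 0.13, adjusted p = 0.0214) and 0.24 for Scd2 (SE 0.063, adjusted p = 0.0483). It was -0.79 for Nceh1 (SE 0.17, adjusted p = 0.0133). The Tespa1-/- libraries after 5-FU also differed in neutrophil and erythroid markers, and the part of these in the 4 values was not tested. With 1 library left out, the call was lost in 11 of 12 fits for Scd2, all but the one without the first untreated Tespa1+/+ library (adjusted p 0.0396 to 0.132), and in 5 of the 6 other settings, all but DESeq2 (up to 0.136). It was lost in 4 of 12 for Lrp8, those without the second or the third untreated Tespa1-/- library or the second library of either genotype after 5-FU (0.0206 to 0.0668). It stayed below 0.05 in all 12 fits for Lrp1 and Nceh1.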

How the results depend on the processing

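The count of members called in untreated LSKs fell from 2 to 1 (Cyp51) with no filter on low counts and to 0 with the replicate block. It also fell to 0 at the study's thresholds, an unadjusted P below 0.05 with a fold change above 1.5, since neither gene reached that fold. With 1 library left out it ranged from 0 to 1. The count after 5-FU fell from 1 to 0 under each of the same 3 settings and ranged from 0 to 0 with 1 library left out. DESeq2, RLE factors, library totals, at least 10 counts in every library and 1 fit of all 12 libraries left both counts as they were, and the cause of the losses was not tested. Counts for 5-FU within a genotype and for the interaction were 0 under every alternative run. The replicate numbers of the labels did not pair the libraries: deviations of same-numbered libraries correlated between -0.057 and 0.025, and 0 of 12 pairs exceeded 0.1. With the block, Cyp51 had an adjusted p of 0.0545 in untreated LSKs and 0.0829 after 5-FU, and Insig1 0.0982, with log2 fold changes of -0.55, -0.45 and -0.41.

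Of 560 values of single members under alternatives, 26 changed sign, all of them in results that had not passed the test. For Fdps these were untreated genotype differences of -0.00198 with DESeq2 and -0.0202 with no filter, and an interaction of -0.00732 with library totals. The others came from leaving out 1 library. The ranges were then -0.078 to 0.16 for Fdps and -0.51 to 0.20 for Lss between untreated genotypes. Between genotypes after 5-FU they were -0.014 to 0.41 for Sqle, -0.19 to 0.14 for Fdps, -0.045 to 0.13 for Insig1 and -0.21 to 0.012 for Fdft1. For 5-FU in Tespa1+/+ LSKs they were -0.075 to 0.14 for Hmgcs1, -0.11 to 0.49 for Lss and -0.34 to 0.078 for Sqle, and in Tespa1-/- LSKs -0.074 to 0.061 for Hmgcs1 and -0.21 to 0.051 for Idi1. The interaction ranged from -0.15 to 0.068 for Hmgcs1 and from -0.20 to 0.12 for Fdps. Of 355 values of the other genes called and named, with Myc, Tespa1 and Ctsb added after the data were seen, 82 no longer passed and 0 changed sign. Beside leaving out libraries, library totals, no filter and the replicate block each ended the calls of Lrp1 (adjusted p 0.0558, 0.0518 and 0.0859) and Lrp8 (0.0531, 0.0508 and 0.091) after 5-FU. No filter and the block ended that of Scd2 after 5-FU (0.0719 and 0.0742), library totals and the block that of Abcg1 in untreated LSKs (0.0507 and 0.0532), and the block those of Lrp1 (0.0532), Myc (0.0808) and Tespa1 (0.0908) in untreated LSKs. With 3 libraries a group, most 1.5-fold changes were missed on simulated counts, for the interaction nearly all. The simulated spread was not fitted to these data, so the share of such changes missed here was not tested.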
